A study of Mus musculus with 4 samples.

Results

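The neuron navigator genes Nav1, Nav2 and Nav3 held 100 of the 74695 merged intervals of accessible chromatin (peaks) in a map of mouse brain parenchymal macrophages. A peak was counted to a gene when its centre lay inside the gene, or when that gene was the nearest protein-coding one within 100 kb. By this rule Nav3 had 18 peaks, Nav2 had 60 and Nav1 had 22. The family was taken up because peaks at Nav3 were known to stand in the authors' YSM list, so the members were chosen by that listing, a measured value, and the listing of their peaks is given here as a description, with no test.

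The map came from Omni-ATAC, in which the Tn5 transposase cuts and tags open chromatin, on sorted cells in 2 groups of 2 libraries, labelled MDM and YSM. MDM was read as monocyte-derived macrophages, after the series title. YSM is left unexplained by the labels. Both groups carried the genotype label Ms4a3-Ai9 and the treatment label DR-3x. Ai9 is a fluorescent reporter switched on by Cre recombinase, and Ms4a3 is expressed in progenitors of granulocytes and monocytes, so descendants of such progenitors can be marked. The labels explain neither DR-3x nor the gate that parted the groups, and they do not give the age of the animals or say whether replicates were taken from different ones. The files used here held positions without a value or depth per library, so no replicate error can be given. In a bulk map such as this, fewer cells with a site open and less opening per cell cannot be told apart.

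Navigator proteins are the mammalian relatives of UNC-53, which guides migrating cells and growing axons in Caenorhabditis elegans. They are large proteins that bind microtubules, and Nav1 gathers at the growing plus ends. In mouse neurons Nav1 takes part in migration and neurite outgrowth, and Nav2, first found as a retinoic acid response gene in human neuroblastoma cells, takes part in axon growth. Nav3 has been counted among the genes that set mouse microglia apart from other macrophages.

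The windows before the starts of Nav1 and Nav2 are shown first because a merged peak overlapped each of them and none of these peaks was in a differential list. The RefSeq promoter table of build GRCm38.p6 (primary chromosomes as in mm10) gave 1 start for Nav1 and 2 for Nav2. It gave no start for Nav3, which is therefore named without a sequence and whose strand was not used here. The 250 bases before each start are printed 5′ to 3′ on the gene's strand. Capitals mark GC boxes, searched as GGGCGG on both strands, and neighbouring matches can share bases.
Nav1, chr1:135585356-135585605, minus strand: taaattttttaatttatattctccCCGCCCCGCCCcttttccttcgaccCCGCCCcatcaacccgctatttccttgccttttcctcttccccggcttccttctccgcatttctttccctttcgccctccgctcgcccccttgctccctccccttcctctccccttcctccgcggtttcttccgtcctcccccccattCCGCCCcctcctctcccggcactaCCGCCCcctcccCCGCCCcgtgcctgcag
Nav2 first start, chr7:48958823-48959072, plus strand: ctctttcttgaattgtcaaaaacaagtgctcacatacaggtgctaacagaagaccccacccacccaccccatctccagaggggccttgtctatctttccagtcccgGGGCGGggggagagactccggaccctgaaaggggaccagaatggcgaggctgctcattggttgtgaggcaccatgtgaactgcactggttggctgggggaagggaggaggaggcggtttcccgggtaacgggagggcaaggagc
Nav2 internal start, chr7:49245939-49246188, plus strand: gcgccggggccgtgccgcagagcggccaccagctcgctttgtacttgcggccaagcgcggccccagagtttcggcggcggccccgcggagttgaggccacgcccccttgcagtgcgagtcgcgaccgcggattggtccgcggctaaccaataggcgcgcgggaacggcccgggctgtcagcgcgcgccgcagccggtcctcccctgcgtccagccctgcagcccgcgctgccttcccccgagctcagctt

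The 3 windows differed in base composition. The Nav2 internal start had 74.4% G+C, Nav1 had 62.4% and the first Nav2 start had 58.8%, against a median of 52.4% over 32851 promoter windows of the same length. The ratio of observed to expected CpG dinucleotides was 1.05 at the Nav2 internal start and 1.33 at Nav1, both CpG-rich beside the median of 0.373, and 0.329 at the first Nav2 start, slightly under that median. The Nav1 window held 6 GC boxes, the first Nav2 window 1 and the internal Nav2 window 0, where 32.7% of all windows held at least 1. The PU.1-type letters GAGGAA, searched on both strands, occurred 3 times in the Nav1 window, apart from its GC boxes, and in neither Nav2 window, against 23.3% of all windows with a match. Searches for the AP-1 letters TGANTCA, the RUNX letters TGTGGT, the nuclear receptor element AGGTCA and a MEF2 motif, also on both strands, gave 0 matches in these 3 windows. The shares of all windows with a match were 6.75%, 14.0%, 14.0% and 0.35% in that order.

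Nav3 held most of the listed navigator peaks. The authors' deposited lists named 0 of its 18 peaks as MDM peaks and 6, or 33.3%, as YSM peaks, and the other 12 were in neither. Over all 74695 merged peaks the MDM list took 0.145% and the YSM list 1.48%. Among the 4444 peaks inside protein-coding genes of at least 300 kb the MDM list took 0.225% and the YSM list 3.22%. The MDM list was short, so 0 MDM-listed among the 100 navigator peaks is near its share of all merged peaks. Nothing is read from the Nav3 count, because it is the value that led to the choice of the family.

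The 6 YSM-listed peaks lay inside Nav3, far from both of its ends. The gene (NCBI gene 260315) runs from 109681260 to 110455722 on chromosome 10 of mm10, a length of 774 kb. The first listed peak, at 109856267 to 109856500, began 175 kb above the low-coordinate end, and the last, at 110094611 to 110094812, ended 361 kb below the high-coordinate end. Between them lay a stretch of 239 kb, or 30.8% of the gene, with 14 merged peaks, of which 0 were MDM-listed and 6 YSM-listed. The gene table gives no exons, so exonic and intronic positions were not told apart.

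Of these 6 peaks, 3 lay close together. They spanned 109967815 to 109968243, 109976288 to 109976525, and 109986135 to 109986424, within 18.6 kb, and combined 3, 4 and 4 subpeaks. A subpeak is a peak called in 1 library before the lists of the 4 libraries were merged, so a merged peak of at most 3 subpeaks lacked a call in at least 1 library. The group of 3 thus held the YSM-listed peaks of Nav3 with the most calls. The remaining listed peaks, at 109856267 to 109856500, 109917616 to 109917816 and 110094611 to 110094812, had 2 subpeaks each. The second of these was 201 bp wide, the width of a single call, so its 2 calls shared the same coordinates. The gaps between successive listed peaks were 61.1, 50.0, 8.04, 9.61 and 108 kb, and joining peaks within 1000 bp of each other left the 6 as separate sites.

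Unlisted peaks stood among the listed ones. The Nav3 peak with the most calls, 6 subpeaks at 110085864 to 110086346, was also its widest at 483 bp and was in neither list, with a gap of 8.26 kb to the YSM-listed peak at 110094611 to 110094812. The unlisted peak at 109965886 to 109966097, with 2 subpeaks, lay just below the group of 3. Another 9 unlisted peaks had a single subpeak each. Those at 110112301 to 110112501, 110455640 to 110455840 and 110455955 to 110456155 lay above the last listed peak, and the rest between listed ones. Of the rest, 2, at 109973510 to 109973710 and 109974118 to 109974318, fell between the first and second peak of the group of 3. The 12 unlisted Nav3 peaks had a median of 1 subpeak (lowest 1, highest 6), and the 6 YSM-listed ones a median of 2.5 (lowest 2, highest 4). Calls and lists rest on the same accessibility, so this describes the listed peaks and is not a separate property of them.

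The high-coordinate part of Nav3 was bare. No merged peak had its centre between 110112502 and 110455639, a stretch that makes up 44.3% of the gene. At the high-coordinate end itself stood 2 peaks of 201 bp, at 110455640 to 110455840 and 110455955 to 110456155, with centres 18 and 333 bp beyond the gene. Each combined 1 subpeak and was in neither list, so at each of them 3 of the 4 libraries had no call. At the opposite end there was 1 peak outside the gene, at 109664900 to 109665115, 16253 bp away, with 2 subpeaks and in neither list.

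**Figure D1:**
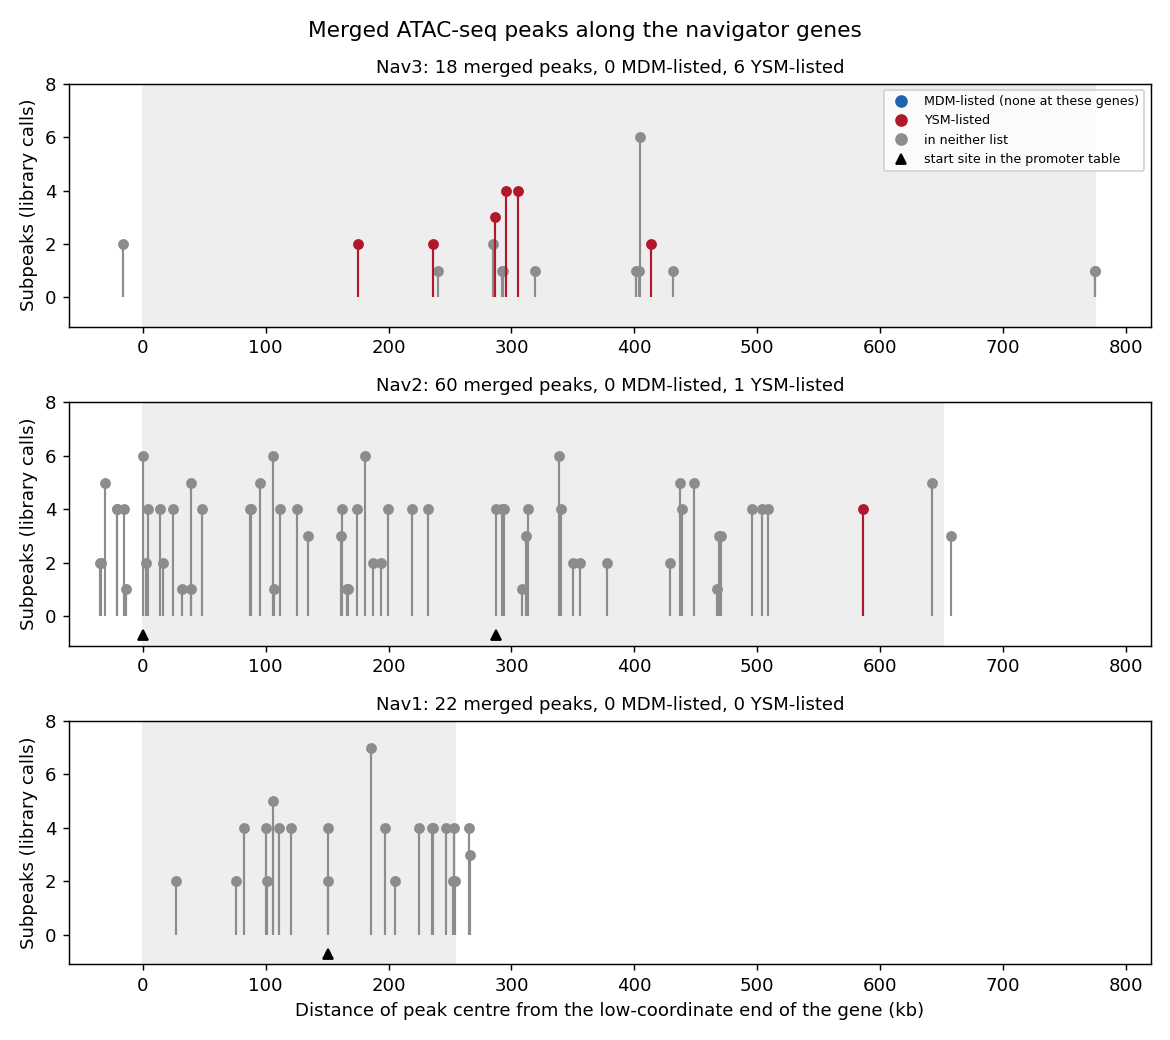
Merged peaks along Nav3, Nav2 and Nav1, by the distance of the peak centre from the low-coordinate end of each gene in kb, with the number of subpeaks as height, the gene body shaded and starts from the promoter table as triangles. The 6 YSM-listed peaks of Nav3 sit between 175 and 413 kb, the upper part of Nav3 is empty up to its end, and Nav2 and Nav1 carry peaks along most of their length, with 1 YSM-listed peak at Nav2 and 0 at Nav1.

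The 100 kb limit of the assignment did not cut into the Nav3 peaks. Below the gene the next merged peak lay 384 kb away, and above it the next lay 278 kb away and was nearer to E2f7, a gene of a cell cycle repressor of the E2F family. The peak 384 kb below had no protein-coding gene within 100 kb, combined 2 subpeaks and was itself YSM-listed. At Nav2 the farthest assigned peak lay 35248 bp below the gene and the next on that side, 50010 bp away, was nearer to E2f8. At Nav1 the farthest lay 12289 bp away and the next on that side, 31419 bp away, was nearer to Csrp1.

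Nav2, the navigator gene with the most peaks, had nearly all of them outside the lists. The authors' deposited lists named 0 of its 60 peaks as MDM peaks and 1, or 1.67%, as a YSM peak, a share near the 1.48% of all merged peaks. The YSM-listed peak, at 49544784 to 49545006 on chromosome 7, combined 4 subpeaks. It lay in the high-coordinate part of the gene (NCBI gene 78286, 48959063 to 49610090, 651 kb), after a gap of 76.6 kb without a merged peak, the longest gap inside Nav2. The next peak above it, after 56.1 kb, began at 49601155, combined 5 subpeaks and was in neither list.

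The peaks of Nav2 were spread over the gene and on both sides of it. Inside the gene lay 51 peaks, below its low-coordinate end, which is its upstream side, 8, and above its other end 1. Both starts had a peak on the window before them, and neither peak was in a list. The first start lay in a peak at 48958797 to 48959225 with 6 subpeaks, which took in the whole 250-base window printed above. The internal start, 287 kb further along, had a peak at 49245944 to 49246186 with 4 subpeaks, which took in 243 of the 250 bases and ended just short of the start itself. Outside the starts, 3 further Nav2 peaks reached 6 subpeaks, at 49064722 to 49065129, 49139745 to 49140161 and 49297183 to 49297586, each in neither list.

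Nav1 had no peak in either list. Its 22 merged peaks, 0 of them MDM-listed and 0 YSM-listed, lay mostly inside the gene (NCBI gene 215690, chromosome 1, 135434580 to 135688350, 254 kb), with 20 inside and 2 beyond the high-coordinate end, which is upstream of the gene on its minus strand. With 1.48% of all merged peaks in the longer list, a count of 0 among 22 is near the background. The start printed above lay between 2 peaks, of which that at 135585394 to 135585820, with 4 subpeaks, covered 212 of the 250 bases and that at 135585042 to 135585296, with 2 subpeaks, lay just past the start. At the high-coordinate end, 103 kb upstream of this start, 3 peaks between 135686854 and 135688422, each within 1000 bp of the next, combined 8 subpeaks together. The Nav1 peak with the most calls, 7 subpeaks at 135619806 to 135620225, lay between these places.

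The 3 genes differed in the number of calls combined into their peaks, to which a library can give more than 1. Nav3 peaks had a median of 1.5 subpeaks, against 4 for Nav2, 4 for Nav1, 4 for all merged peaks and 3 for peaks inside genes of at least 300 kb. A single subpeak made up 9 of 18 Nav3 peaks (50.0%), 8 of 60 Nav2 peaks (13.3%) and 0 of 22 Nav1 peaks. The share was 20.3% over all merged peaks and 26.1% over peaks inside genes of at least 300 kb. At most 3 subpeaks, and so no call in at least 1 library, were found at 83.3% of Nav3 peaks, 40% of Nav2 peaks and 36.4% of Nav1 peaks, against 42.3% of all merged peaks and 51.6% of the 4444 peaks inside genes of at least 300 kb. In the same measure the 6 YSM-listed peaks of Nav3 stood at 66.7% and its 12 unlisted ones at 91.7%, where the whole MDM list stood at 12% and the whole YSM list at 71.6%. Which libraries gave the calls is not stated in the peak names, and no test was run, since peaks do not stand in for replicate animals.

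**Figure D2:**
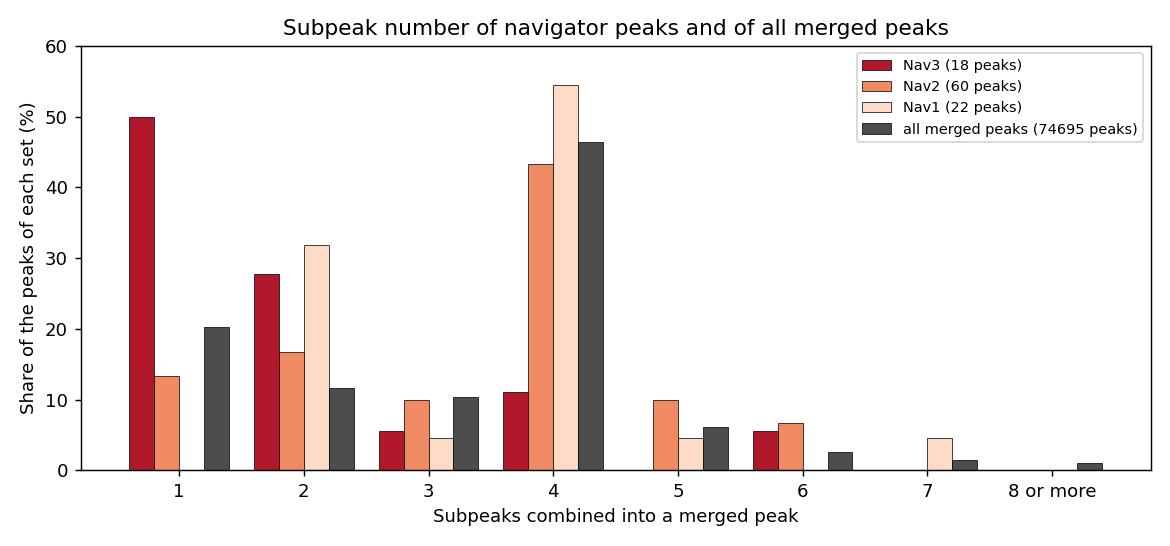
Share of peaks (%) by the number of subpeaks combined into them, for Nav3 (18 peaks), Nav2 (60), Nav1 (22) and all 74695 merged peaks. Nav3 peaks pile up at 1 subpeak, with 50.0% there against 20.3% of all merged peaks, while Nav2 and Nav1 peak at 4 subpeaks as all merged peaks do. Peaks inside genes of at least 300 kb, not drawn, had 26.1% at 1 subpeak.

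Peak density also differed among the 3 genes. Nav3 had 1.94 peaks per 100 kb of gene, against 7.83 in Nav2 and 7.88 in Nav1, and the median over 381 genes of at least 300 kb with a merged peak was 1.54. Peaks covered 0.477% of Nav3, 2.17% of Nav2 and 2.19% of Nav1. Of the 381, 164 were as dense as Nav3 or denser and 34 as dense as Nav2 or denser, each count with the gene itself. In the number of merged peaks, Nav2 was among the 5 protein-coding genes with 60 or more, of 15255 with any, where the median was 3. The median width was 201 bp for Nav3 peaks, 254 bp for Nav2 and 261 bp for Nav1, against 236 bp for all merged peaks, and width is tied to the number of subpeaks.

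The genes most like Nav3 were named by the distance between genes in number of peaks, YSM-listed share, share of peaks inside the gene and gene length, over 4909 genes with at least 5 merged peaks. The nearest was Dlgap2, a gene of a postsynaptic scaffold protein, with 0 MDM-listed and 4 YSM-listed of 13 peaks in 758 kb. Kcnma1, the gene of the large-conductance calcium-activated potassium channel, had 0 MDM-listed and 4 YSM-listed of 11 peaks in 713 kb. Ablim1, which encodes an actin-binding LIM protein, had 0 and 4 of 13 in 283 kb. Etl4 had 0 and 3 of 9 in 900 kb, and Dgki, a diacylglycerol kinase gene, 0 and 3 of 9 in 464 kb. The median subpeak numbers of these genes were 2, 1, 2, 2 and 3 in the order named, against 1.5 at Nav3. A median under the 4 of all merged peaks was thus not particular to Nav3. The likeness was largely built in, since the YSM-listed share, the value that led to the choice of Nav3, is 1 of its 4 measures. Each measure was divided by its SD over the 4909 genes, most with a share of 0%, so this share weighed heavily. The 5 genes had YSM-listed shares of 30.8% to 36.4%, against 33.3% at Nav3, 1.67% at Nav2 and 0% at Nav1. Nav2 and Nav1 were not among the nearest, at distances of 5.53 and 5.34 against 0.819 for Dlgap2, which placed them 889th and 466th in likeness to Nav3. Among the 381 long genes with a merged peak, 11 held an MDM-listed peak and 78 a YSM-listed one, and 4, Nav3 included, held at least 6 of the latter list.

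**Figure D3:**
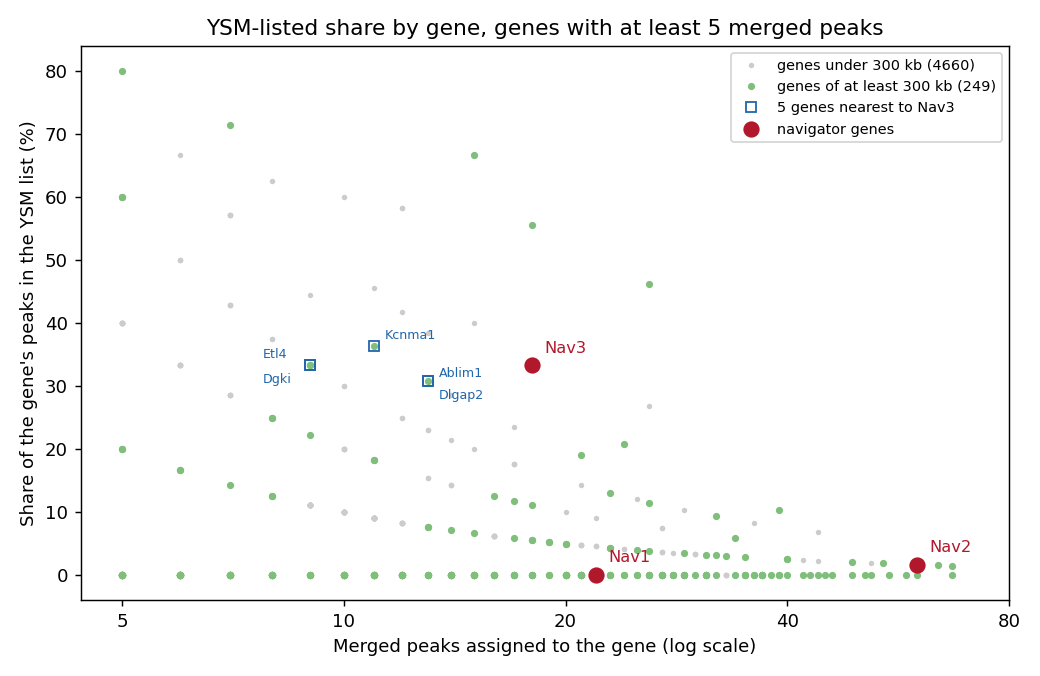
Share of each gene's merged peaks in the YSM list (%) against its number of merged peaks on a log scale, for the 4909 protein-coding genes with at least 5 peaks, with genes of at least 300 kb in green, the navigator genes in red and the 5 genes nearest to Nav3 as squares. Nav3 stands at 33.3% of 18 peaks, while Nav2 at 1.67% of 60 and Nav1 at 0% of 22 lie along the base with most genes.

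Genes of the microtubule plus end, of navigator partners and of some other microtubule and centrosomal proteins were listed at about the rate of all merged peaks. Of 35 such genes, 34 had merged peaks, 324 in all, of which 0 were MDM-listed and 3 (0.926%) YSM-listed, near the 0.145% and 1.48% of all merged peaks. The 3 were single peaks inside Clasp2, which encodes a microtubule-stabilising plus-end protein (113825991 to 113826381 on chromosome 9, 3 subpeaks), Dst, a cytoskeletal linker gene (34290723 to 34290940 on chromosome 1, 2 subpeaks), and Cep350, a centrosomal protein gene (155863019 to 155863289 on chromosome 1, 4 subpeaks). The end-binding protein genes Mapre1, Mapre2 and Mapre3 had 4, 19 and 3 merged peaks, with 0 in either list. Trio, which encodes a guanine nucleotide exchange factor that binds Nav1, had 34, and Macf1, a spectraplakin gene, 37, also with 0 in either list.

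The 6 genes on either side of the navigators had 23 merged peaks, with 0 MDM-listed and 0 YSM-listed, which is near the 0.145% and 1.48% of all merged peaks. Ipo9 and Csrp1 beside Nav1 had 4 and 5 merged peaks, E2f8 and Dbx1 beside Nav2 had 9 and 1, and Syt1 and E2f7 beside Nav3 had 0 and 4. Nav3 stood in open country, with 670 kb to Syt1 and 290 kb to E2f7, whereas Ipo9 lay 4.08 kb from Nav1.

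The labelled cell type was checked on its markers, beside the 15255 of 21896 protein-coding genes (69.7%) that had a merged peak. All 9 macrophage genes looked up, Spi1 and Csf1r among them, had merged peaks, 7 within 1000 bp of an end of the gene, and so did all 10 microglial genes, with 10 at an end. At Nav3 the peaks at an end were of 1 subpeak each. The share of all protein-coding genes with a peak at an end was not worked out. Of 7 neuronal genes, a cell type that also uses navigators, 5 had merged peaks and 2 at an end, with 0 in either list. Leaving out Nav3, whose listing led to its choice, the other 9 microglial genes held 0 MDM-listed and 7 YSM-listed of 67 peaks, all 7 at Sall1. The gene lists, too, were chosen with earlier results of these data known, so this count is a description and not a separate check. The 7 monocyte-derived macrophage genes all had merged peaks, 64 in number, with 0 in either list, and 4 of these genes had a peak at an end. Merged peaks also stood at all 4 astrocyte genes (18 peaks), all 4 endothelial genes (33) and 3 of 4 oligodendrocyte genes (25). In each of these 3 lists 2 genes had a peak at an end. A merged peak at a gene thus did not single out macrophage markers. The astrocyte and endothelial genes had 0 in either list, and the oligodendrocyte genes held 0 MDM-listed and 2 YSM-listed peaks, at Mog and Mbp. Over all merged peaks the lists took 0.145% and 1.48%. Whether other cells had a part in the Nav3 peaks was not tested.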

How the data were processed

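Omni-ATAC libraries of 4 samples (2 MDM, 2 YSM) had been processed by the authors with Trimmomatic 0.39, Bowtie2 2.2.5, Picard and HOMER on mm10, per the submitters' processing notes. Peaks per library were merged with HOMER mergePeaks, per the file headers. The authors deposited 108 MDM and 1104 YSM peaks as 2 lists whose names tie them to DESeq2. Their thresholds, the peak caller's settings and any Tn5 shift are not given in any source used here. Each listed peak matched a merged one exactly and was taken, from its list's name, as more accessible in that group. Subpeak numbers came from the peak names. All 15127 peaks with 1 subpeak were 201 bp wide. Depth per library is unknown.

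With Python 3.11.15 and pandas 2.3.3, peaks were assigned by their centre to RefSeq genes (GRCm38.p6). The assignment was tested on simulated intervals inside single genes only, so the rules for peaks outside genes or inside overlapping genes were not tested. Coordinates are 1-based. Named genes were the members, their neighbours, the 5 genes most like Nav3, the genes of the plus-end list with a listed peak and some cell type markers. From the plus-end list, Mapre1, Mapre2, Mapre3, Trio and Macf1 were named in addition, without a listed peak. The members and gene lists were chosen with earlier results of these data known, and no test was run. The alternatives were body only, 50 kb, genes of every kind, any peak within 100 kb, joining within 1000 bp, and at least 2 or 4 subpeaks.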

Additional observations from a re-analysis of the deposited data

How the results depend on the processing

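Of 105 values under 7 alternatives, over 15 results, 93 stayed within 1.5 times the reported count or within 1 SD of the reported median. The other 12 moved. With peaks of at least 4 subpeaks, merged peaks numbered 3 at Nav3, 36 at Nav2 and 14 at Nav1, those inside the genes 3, 31 and 13, and YSM-listed peaks at Nav3 2, with a median of 4 subpeaks. With at least 2 subpeaks Nav3 had 9 merged peaks, 8 of them inside. Genes of every annotated kind, which take the peaks assigned to them instead, left 38 peaks to Nav2, and any peak within 100 kb gave Nav1 38. The former left 36 peaks inside Nav2, a value that counts among the 93. YSM-listed peaks at Nav3 numbered 6 under the other 6 alternatives, and MDM-listed peaks 0 at the 3 genes under all 7. Not all of the 93 could have moved. A count of 0 cannot rise under an alternative that only drops or joins peaks. Peaks inside a gene are the same by construction under body only, 50 kb and any peak within 100 kb. The 6 YSM-listed peaks of Nav3 all lay inside the gene, with 2 to 4 subpeaks each, and no other peak was near enough to be joined to them. No further merged peak lay within 100 kb of Nav3. Of the 6 alternatives that left this count at 6, only genes of every annotated kind could therefore have changed it. Leaving out a library was not run, since the files hold no values per library. No paired analysis was possible because the lists carry no values for the numbered libraries. Unknown depth limits what the absence of a call means.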

Other observations

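The surroundings of the navigator genes resembled each other, a pattern chosen after the neighbours were seen. E2f7, Csrp2 and Zdhhc17 followed Nav3 on its high-coordinate side in that order, 290, 464 and 486 kb away, and E2f8, Csrp3 and Zdhhc13 followed Nav2 on its low-coordinate side, 77.0, 111 and 132 kb away. Csrp1 lay beside Nav1. E2f7 and E2f8 encode related repressors of the E2F family, and the Csrp genes encode LIM-domain proteins. Zdhhc17 and Zdhhc13 had 9 and 8 merged peaks, E2f7 and E2f8 had 4 and 9, Csrp2 had 4, Csrp3 had 0 and Csrp1 had 5. Of these 39 peaks, 0 were MDM-listed and 0 YSM-listed, near the 0.145% and 1.48% of all merged peaks.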
